A study of Mus musculus with 36 samples.

Results

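The genes described here were the 9 troponin and tropomyosin genes that mark slow and fast thin filaments: Tnni1, Tnnt1 and Tnnc1 (slow troponins I, T and C), Tnni2, Tnnt3 and Tnnc2 (their fast counterparts), and the tropomyosins Tpm1, Tpm2 and Tpm3. They were taken by gene symbol, and all 9 were found among the 51912 gene IDs of each of the count tables, 1 table for each muscle. RNA-seq was done on whole muscle of C57BL/6 mice of 3 months, from the tibialis anterior (TA), a fast muscle, and the soleus, a slow one, each in wild-type (WT) and ∆Ig3-MuSK animals, so that 36 libraries made up 4 groups of 9. MuSK is the muscle-specific kinase of the neuromuscular junction and also binds BMPs, through the third of its immunoglobulin-like domains (Ig3). In ∆Ig3-MuSK mice the exons for Ig3 were deleted in the germline by CRISPR-Cas9, so every tissue carried the allele, not muscle fibers alone. The comparisons were between muscles within a genotype, between genotypes within a muscle, and of the genotype effect between muscles.

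The thin filament of the sarcomere is actin wound with tropomyosin and studded with the troponin complex. Troponin C binds calcium, troponin I holds actomyosin inhibited until calcium is bound, and troponin T ties the complex to tropomyosin, which blocks or uncovers the myosin sites of actin. Slow fibers and fast fibers use different genes for each troponin subunit, and the slow troponin C gene also serves the heart. Tpm1 encodes the fast alpha tropomyosin of skeletal fibers, Tpm3 the slow alpha form, and Tpm2 the beta form found in both fiber types. All of the tropomyosin genes also make non-sarcomeric forms from other promoters and exons, which gene-level counts do not separate.

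Library totals were 43492062 to 60426556 counts in the soleus and 49287472 to 78660422 in the TA, and no pair of libraries was alike within counting noise. Each library of a group came from a different animal, as the study describes it, so p-values measure the spread between animals. Whether a TA and a soleus library came from the same animal is not stated, and the main fits do not pair them. Values are given as CPM, the counts of a gene scaled by library total and TMM factor over all 36 libraries. By slow and type IIb fiber markers the muscles matched their names. The 6 slow fiber markers summed to 115 to 192 CPM in WT TA and 16189 to 22952 CPM in WT soleus. The 4 type IIb markers summed to 29450.2 to 42741 CPM in WT TA and 334 to 8902 CPM in WT soleus, a wide range within 1 group. These 4 belong to a list of 10 fast fiber markers. The 10 summed to 60803 to 78212 CPM in WT TA and 19313 to 35955 CPM in WT soleus. Of the 10, 9 had lower estimates in WT soleus and 1 a higher one. Myh2 had medians of 566 CPM in WT TA and 8198 CPM in WT soleus. Musk, the edited gene, had a median of 14.7 CPM in WT and 10.5 CPM in ∆Ig3-MuSK soleus (log2 fold change -0.44, edgeR adjusted p = 0.0978), and 3.81 against 3.08 CPM in the TA (-0.46, adjusted p = 0.135). Gene counts do not show the deleted exons and so do not check the genotype. The deleted exons can give no reads in ∆Ig3-MuSK, and their part in the lower Musk counts was not tested. TA and soleus counts were deposited as separate tables, so a step that differed between the tables cannot be told apart from the muscle. In whole muscle, fewer fibers of a type and less RNA in each fiber cannot be told apart either.

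Sequences of the slow and fast genes were compared first, since reads that fit both genes of a pair would blur the slow to fast comparisons. Between the principal coding sequences of the GENCODE annotation, Tnni1 and Tnni2 were identical at 71.4% of aligned bases, Tnnt1 and Tnnt3 at 70.5%, Tnnc1 and Tnnc2 at 70.4%, and the 3 tropomyosin pairs at 74.3% to 76.3%. The longest stretch of coding sequence that each troponin pair has in common, all bases identical, is shown to give the scale of this likeness, read 5′ to 3′ on the coding strand.
Tnni1 and Tnni2, 22 bases, Tnni1 coding bases 382 to 403: ctgggctctaagcacaaggtgt
Tnnt1 and Tnnt3, 16 bases, Tnnt1 coding bases 65 to 80: aggaggaagcccccga
Tnnc1 and Tnnc2, 21 bases, Tnnc1 coding bases 54 to 74: tgagttcaaggctgcctttga

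Over all annotated transcripts, no 50-base word of Tnnc1, Tnni2, Tnnt3, Tpm1 or Tpm2 occurred in another gene, and none was shared by a slow and a fast gene of a pair. For Tnni1 0.380% and for Tnnt1 1.16% of such words did. Tnnc2 and Tpm3 were the exceptions. The gene Ube2c, on the opposite strand of chromosome 2, has annotated exons over 592 of the 800 exonic bases of Tnnc2 (with 47.9% of its 50-base words on the reverse strand), and the libraries were non-stranded. In all 36 libraries the counts of the Tnnc2 and Ube2c rows differed by at most 0.0908%, with Tnnc2 at 128207 to 569585 counts, so both rows carry nearly the same reads and the Tnnc2 values are read with this limit. Tpm3-rs7, a Tpm3-related sequence on chromosome 14, contains 23.2% of the 50-base words of Tpm3. Its row held 19.5% to 21.8% of the Tpm3 count in WT soleus and 38.5% to 55.0% in WT TA, so the reads of both rows cannot be fully separated.

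Promoters are shown for the 3 slow troponins, which moved together between muscles, and for the fast troponin C. They are the 250 bases before a RefSeq start (GRCm38.p6), on the strand of the gene, and 7 of the 9 genes matched the table used. Tnni1 has 2 starts in it, and the upstream one is shown. The other window (chr1:135799261-135799510) overlaps it and held 2 E-boxes and the same MEF2-type core. The Tnni1 and Tnnt1 windows and most of the Tnnc2 window lie inside the GENCODE span of their gene, which starts further upstream than the RefSeq start. Tnni2 and Tnnt3 are named only. Capitals mark matches on either strand to an E-box (CANNTG, bound by myogenic bHLH factors), an MCAT element (CATTCC, bound by TEAD factors), a MEF2-type core (CTANNNNTA) and TATAAA. In Tnnt1 the MEF2-type core and TATAAA overlap. Of the 32851 promoter windows in the table, 21753 (66.2%) held the E-box, 6227 the MEF2-type core, 4153 (12.6%) the MCAT element and 4063 (12.4%) TATAAA.
Tnni1, chr1:135799171-135799420, plus strand: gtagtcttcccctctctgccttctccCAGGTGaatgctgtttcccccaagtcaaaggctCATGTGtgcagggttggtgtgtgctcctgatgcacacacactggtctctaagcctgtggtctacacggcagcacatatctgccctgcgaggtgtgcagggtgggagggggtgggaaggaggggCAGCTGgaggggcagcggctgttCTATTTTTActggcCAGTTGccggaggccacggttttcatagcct
Tnnt1, chr7:4515976-4516225, minus strand: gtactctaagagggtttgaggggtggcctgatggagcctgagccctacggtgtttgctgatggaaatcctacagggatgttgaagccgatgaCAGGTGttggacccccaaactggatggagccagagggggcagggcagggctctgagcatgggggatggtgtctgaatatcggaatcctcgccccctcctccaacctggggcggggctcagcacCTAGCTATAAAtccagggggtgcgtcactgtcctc
Tnnc1, chr14:31208062-31208311, plus strand: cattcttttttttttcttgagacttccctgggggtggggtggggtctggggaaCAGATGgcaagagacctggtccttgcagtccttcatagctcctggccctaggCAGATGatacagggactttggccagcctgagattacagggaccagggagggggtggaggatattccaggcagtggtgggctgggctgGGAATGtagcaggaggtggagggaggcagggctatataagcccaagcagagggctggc
Tnnc2, chr2:164779735-164779984, minus strand: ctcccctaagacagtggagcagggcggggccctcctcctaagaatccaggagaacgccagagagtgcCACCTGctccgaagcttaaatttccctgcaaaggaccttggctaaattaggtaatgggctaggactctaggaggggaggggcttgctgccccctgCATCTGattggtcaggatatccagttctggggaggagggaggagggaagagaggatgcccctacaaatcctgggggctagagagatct

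The 4 windows shown held 1 to 4 E-boxes each. The MEF2-type core was present before Tnni1 and Tnnt1 and the MCAT element before Tnnc1, while the Tnnc2 window held E-boxes alone of these motifs. Among the windows not shown, that of the fast Tpm1 also held an MCAT element, and a Tpm3 window held a MEF2-type core. Such matches are letters in a window and no measure of binding.

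The comparison of soleus with TA asked how far each gene separates slow from fast muscle. All 9 genes were called in both genotypes, where a call is an edgeR quasi-likelihood test with Benjamini-Hochberg adjusted p under 0.05 and a change of at least 1.2-fold. Of all genes tested, 57.5% were called in WT and 56.1% in ∆Ig3-MuSK, so a call alone sets no gene apart here. Of the 9 genes 5 were higher and 4 lower in the soleus in each genotype, where 30.2% and 27.3% of all genes were called higher and lower in WT, and 28.5% and 27.6% in ∆Ig3-MuSK. The 3 slow troponins and Tpm3 were higher in the soleus by a factor of 114 to 509 in WT, Tpm2 was higher by 1.67-fold, and the fast troponins and Tpm1 were lower by 1.74- to 3.76-fold.

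Tnni1 (chromosome 1, 135779434 to 135810989), the inhibitory subunit of slow fibers, ranged over 1.11 to 5.01 CPM in WT TA (median 2.19) and 710.4 to 1152 CPM in WT soleus (median 951). In ∆Ig3-MuSK mice it ranged over 1.19 to 6.82 CPM in the TA (median 2.27) and 691 to 1079 CPM in the soleus (median 874). The muscles were far apart, with no overlap, and the soleus was 353-fold higher in WT (log2 8.46 ± 0.30 SE, adjusted p = 4.48e-24) and 328-fold higher in ∆Ig3-MuSK (log2 8.36 ± 0.30, adjusted p = 6.40e-24). For Tnnt1 (chromosome 7, 4504570 to 4516382), the tropomyosin-binding subunit of slow fibers, WT TA libraries lay between 3.11 and 9.12 CPM (median 3.82) and WT soleus libraries between 2079.7 and 2615 CPM (median 2232). The corresponding ∆Ig3-MuSK ranges were 2.43 to 11.9 CPM (median 4.50) and 1946 to 2818 CPM (median 2316). Again no TA library reached the soleus range, and the difference was 479-fold in WT and 436-fold in ∆Ig3-MuSK. Tnnc1 (chromosome 14, 31208312 to 31211729), the calcium sensor of slow and cardiac muscle, covered 1.40 to 5.47 CPM in WT TA (median 2.16) and 1176 to 1596 CPM in WT soleus (median 1337). It stood at 1.47 to 7.90 CPM (median 2.40) and 1120 to 1708 CPM (median 1326) in the ∆Ig3-MuSK muscles. Its fold difference was the largest of the 9 genes in both genotypes, 509 in WT and 451 in ∆Ig3-MuSK. The TA values of these genes rest on few reads, 78 to 906 counts per library, and spread widely, with coefficients of variation of 43.9% to 68.4% against 9.37% to 16.1% in the soleus.

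The fast troponins were lower in the soleus but far from absent. Tnni2 (chromosome 7, 142441808 to 142444410), the fast inhibitory subunit, lay at 4750.3 to 7836 CPM in WT TA (median 5619) and 2016 to 3768 CPM in WT soleus (median 2525). In ∆Ig3-MuSK it lay at 4802 to 6299 CPM (median 5127) in the TA and 2404 to 3489 CPM (median 3131) in the soleus. The ranges did not overlap, yet the soleus was only 2.26-fold lower in WT (log2 -1.18 ± 0.11 SE, adjusted p = 4.61e-12) and 1.77-fold lower in ∆Ig3-MuSK. Tnnt3 (chromosome 7, 142498836 to 142516009), the fast troponin T and neighbor of Tnni2 on chromosome 7, had the highest median CPM per kb of transcript of the 9 genes in every group. It held 9935 to 13550.5 CPM in WT TA (median 11586) and 5148 to 9189.5 CPM in WT soleus (median 6509.8), with ∆Ig3-MuSK libraries at 9909 to 13032 CPM (median 10837) and 6552 to 8968 CPM (median 7733). This was the smallest muscle difference of the troponins, 1.74-fold lower in WT soleus and 1.44-fold lower in ∆Ig3-MuSK soleus (log2 -0.53 ± 0.10, adjusted p = 9.11e-06), still with no overlap. Tnnc2 (chromosome 2, 164777161 to 164779967), the fast calcium sensor, stood at 6258 to 8608 CPM in WT TA (median 6863) and 2570.4 to 4489 CPM in WT soleus (median 3127), and at 5697 to 8703 CPM (median 6298) and 2891 to 4376 CPM (median 3698) in ∆Ig3-MuSK. It was 2.17-fold lower in WT soleus and 1.84-fold lower in ∆Ig3-MuSK soleus, with the reads of the Ube2c row in both.

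The tropomyosins moved in different directions. Tpm1 (chromosome 9, 67022590 to 67049406), the fast alpha form, covered 10658 to 16959 CPM in WT TA (median 13509) and 2827 to 5329 CPM in WT soleus (median 3489). Its ∆Ig3-MuSK libraries held 11917 to 15302 CPM (median 13017) and 3436 to 4889 CPM (median 4281). It was 3.76-fold lower in the soleus in WT (log2 -1.91 ± 0.11 SE, adjusted p = 4.49e-18) and 3.08-fold lower in ∆Ig3-MuSK, the largest fall of the 9 genes. Tpm2 (chromosome 4, 43514711 to 43523765), the beta form, was abundant in both muscles, with 4638 to 5798 CPM in WT TA (median 4833) and 7928 to 9047 CPM in WT soleus (median 8256). The ∆Ig3-MuSK libraries held 4139 to 5259 CPM (median 4628) in the TA and 7831 to 10544 CPM (median 8572) in the soleus. The soleus was 1.67-fold higher in WT and 1.91-fold higher in ∆Ig3-MuSK, without overlap, which is small beside Tpm3. Tpm3 (chromosome 3, 90072649 to 90100902), the slow alpha form, spanned 18.7 to 28.0 CPM in WT TA (median 21.5) and 2218 to 3010.3 CPM in WT soleus (median 2454). In ∆Ig3-MuSK the ranges were 18.4 to 30.9 CPM (median 22.3) and 2446 to 3351 CPM (median 2738). The fold difference was 114 in WT and 124 in ∆Ig3-MuSK, and its TA level, unlike that of the slow troponins, varied little between libraries, by 14.3% in WT and 16.5% in ∆Ig3-MuSK (coefficient of variation). Smooth muscle also uses Tpm1 and Tpm2, and its 5 markers summed to 153 to 178 CPM in WT TA and 192 to 228 CPM in WT soleus. In WT, 3 of the 5 were called higher in the soleus, against 30.2% of all genes. In ∆Ig3-MuSK 0 were called higher and 1 lower, against 28.5% and 27.6% of all genes. The part of smooth muscle in the Tpm1 and Tpm2 differences was not tested.

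For all 9 genes the 9 soleus and 9 TA libraries were fully apart in both genotypes, as was the case for 28.3% of the genes tested in WT and 29.4% in ∆Ig3-MuSK. The plot of library values shows the asymmetry: the slow troponins and Tpm3 dropped by orders of magnitude in the TA, whereas the fast troponins and Tpm1 kept levels of at least 1489.5 CPM per kb of transcript in every soleus library.

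**Figure D1:**
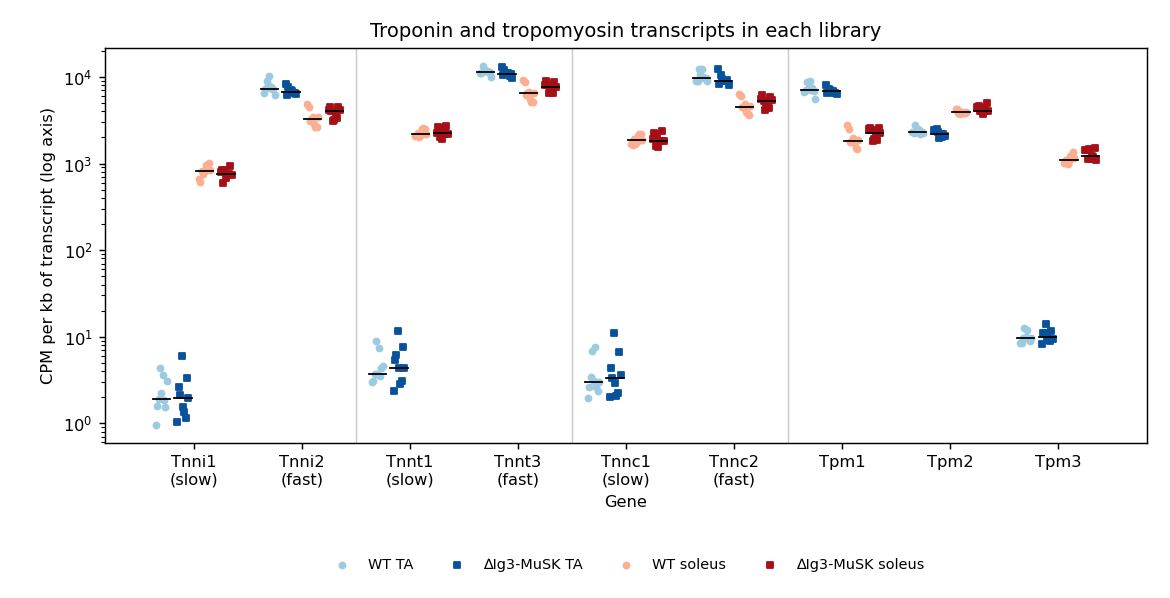
Level of each gene in each of the 36 libraries as CPM per kb of the longest principal transcript, on a log axis, with WT as circles, ∆Ig3-MuSK as squares and a black line at the median of each group of 9. The 3 slow troponins lay between 0.966 and 11.6 CPM per kb in TA libraries and between 601 and 2744 CPM per kb in soleus libraries.

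**Figure D2:**
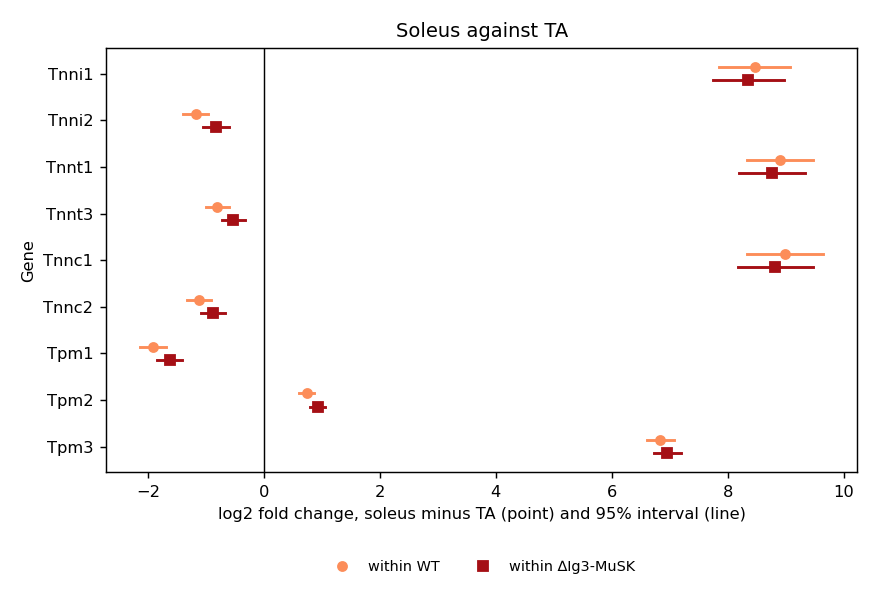
Log2 fold change of soleus against TA for each gene, within WT (circles) and within ∆Ig3-MuSK (squares), with the 95% interval of the edgeR fit as a line. Tnnc1 was at 8.99 and 8.82, Tpm1 at -1.91 and -1.62.

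Levels were compared between genes only after division by transcript length (the longest principal transcript, 700 bases for Tnnc2 to 2233 for Tpm3). On this CPM per kb scale the soleus carried more fast than slow troponin transcript for every subunit and in every library. Tnni1 made up 11.9% to 27.6% of the troponin I pair in WT soleus (median 19.7%) and 12.8% to 21.4% in ∆Ig3-MuSK soleus (median 16.2%). Tnnt1 made up 18.4% to 33.1% of the troponin T pair (median 25.2%) and 19.7% to 28.4% (median 22.7%). Tnnc1 made up 20.7% to 37.6% of the troponin C pair (median 28.9%) and 23.1% to 34.6% (median 26.3%). The genotypes overlapped for each pair, and the WT libraries spread wider than the ∆Ig3-MuSK ones. In the TA the slow share was 0.0126% to 0.115% over all pairs and libraries. As log2 slow to fast ratios of the deposited counts, without a length, the WT soleus medians were -1.44 for troponin I, -1.54 for troponin T and -1.25 for troponin C, with ∆Ig3-MuSK medians of -1.79, -1.74 and -1.44. No test was made on these ratios.

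**Figure D3:**
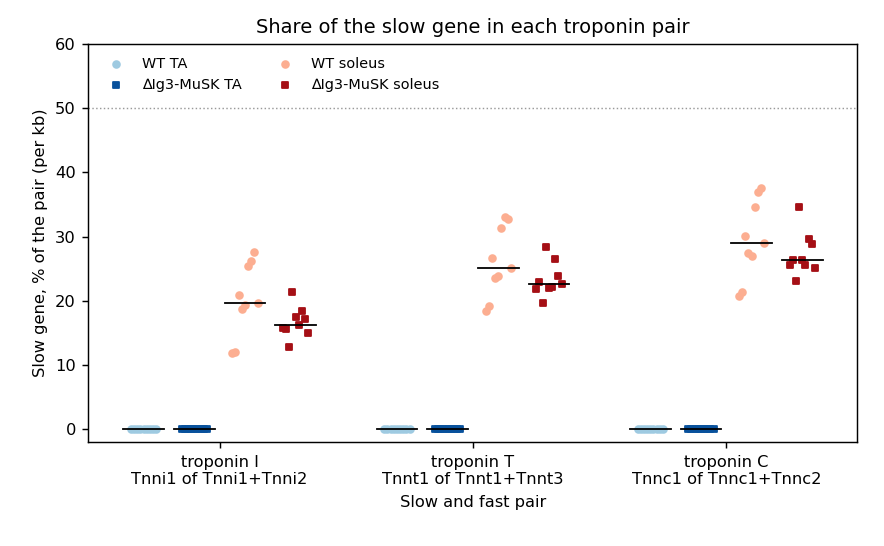
Share of the slow gene in each troponin pair, in percent of the summed CPM per kb, for each library of the 4 groups, with black lines at the medians and a dotted line at equal levels. All soleus libraries lay below 50%, between 11.9% and 37.6%, and the TA libraries sat at the bottom of the axis.

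The order of the CPM per kb levels differed between muscles. In WT TA it ran Tnnt3, Tnnc2, Tnni2, Tpm1, Tpm2, Tpm3, Tnnt1, Tnnc1 and Tnni1, where the ranges of neighbors overlapped except at the steps from Tpm1 to Tpm2 and from Tpm2 to Tpm3. In WT soleus it ran Tnnt3, Tnnc2, Tpm2, Tnni2, Tnnt1, Tnnc1, Tpm1, Tpm3 and Tnni1, with steps below Tnni2 and below Tpm1 and overlap elsewhere. In ∆Ig3-MuSK the order differed by swaps of overlapping neighbors, Tpm1 with Tnni2 in the TA and Tpm1 with Tnnt1 and Tnnc1 in the soleus. Within the tropomyosins, Tpm1 held a median of 75.7% of the CPM per kb in WT TA, Tpm2 24.1% and Tpm3 0.0971%. In WT soleus these were 26.7%, 57.2% and 16.4%, and in ∆Ig3-MuSK soleus 28.2%, 55.2% and 16.5%. Tpm2 was thus the leading tropomyosin transcript of the soleus and Tpm1 that of the TA in either genotype. Together the 9 genes took 3.80% to 4.62% of all counts in WT TA and 3.21% to 3.75% in WT soleus.

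The comparison of ∆Ig3-MuSK with WT asked whether loss of the Ig3 domain shifts the slow or fast makeup of the thin filament. The lowest, median and highest level of each group are those given above. In the soleus 0 of the 9 genes were called by edgeR, against 0.952% of all genes tested, and DESeq2 and limma-voom called 0 of them as well. At an unadjusted p under 0.05 there was 1, Tpm3, where 18.5% of all genes passed. Tpm3 was at a log2 fold change of 0.17 (95% interval 0.01 to 0.33, adjusted p = 0.226), and 8 of 9 ∆Ig3-MuSK libraries lay above the WT median, 4 of them above all WT libraries. Of the slow troponins, Tnnt1 and Tnnc1 had estimates near 0 and Tnni1 one below 0, and none passed the test. Tnni1 was at -0.12 (-0.31 to 0.08), Tnnt1 at 0.03 (-0.12 to 0.18) and Tnnc1 at 0.01 (-0.17 to 0.18), all log2 with 95% intervals. The fast troponins had estimates above 0 that did not pass the test: Tnni2 0.17 (-0.06 to 0.41, adjusted p = 0.430), Tnnt3 0.20 (-0.03 to 0.42, adjusted p = 0.342) and Tnnc2 0.13 (-0.09 to 0.35, adjusted p = 0.530). All 9 ∆Ig3-MuSK soleus libraries had more Tnnt3 than the WT median, but none exceeded the highest WT library. Tpm1 was at 0.19 (-0.04 to 0.43) and Tpm2 at 0.09 (-0.03 to 0.21). For Tpm2, as for Tpm3, 8 of 9 ∆Ig3-MuSK libraries lay above the WT median and 4 above all WT libraries, with 1 below them all. For Tpm1 8 lay above the WT median and 0 above all WT libraries. The genotypes overlapped for every one of the 9 genes, and 0.072% of all genes did not overlap. The 4 type IIb markers, 0 of which were called, summed to 1961 CPM at the median in WT soleus (range 334 to 8902). In ∆Ig3-MuSK soleus they summed to 3563 CPM (range 913 to 7033). All 10 fast fiber markers, 0 called, had median sums of 25040 CPM in WT and 29721 CPM in ∆Ig3-MuSK soleus. Of these, 8 had higher and 2 lower estimates in ∆Ig3-MuSK. The 6 slow fiber markers, 0 called, had median sums of 20080.5 and 18693 CPM, with 2 estimates higher and 4 lower. The 5 smooth muscle markers summed to 192 to 228 CPM in WT and 139 to 206 CPM in ∆Ig3-MuSK soleus, with Acta2 called lower in ∆Ig3-MuSK. Their part in the values above was not tested.

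In the TA 0 of the 9 genes were called by edgeR, DESeq2 or limma-voom, and 0 passed an unadjusted p under 0.05, against 0.0149% and 24.1% of all genes in the edgeR fit. DESeq2 gave no adjusted p for Tnni1 and Tnnc1 in this muscle, so it could not call them. WT and ∆Ig3-MuSK libraries overlapped for all 9 genes, while 0.0288% of all genes showed no overlap. Of the fast troponins, Tnni2 was at -0.16 (-0.35 to 0.02), Tnnt3 at -0.07 (-0.21 to 0.08) and Tnnc2 at -0.10 (-0.28 to 0.08). Tpm1 was at -0.09 (-0.26 to 0.08), Tpm2 at -0.08 (-0.22 to 0.05) and Tpm3 at 0.07 (-0.13 to 0.26). The intervals of these 6 genes all held 0. The slow troponins, scarce in this muscle, were poorly determined: Tnni1 0.01 (-0.66 to 0.67), Tnnt1 0.18 (-0.39 to 0.76) and Tnnc1 0.20 (-0.49 to 0.89). A single library, ∆Ig3-MuSK TA replicate 4, was highest in all 3, at 6.82, 11.9 and 7.90 CPM, and without it the estimates were -0.31, -0.05 and -0.13. Myh7, the slow myosin, was also highest in that library, at 37.5 CPM against a group median of 6.13.

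The genotype effect itself was compared between muscles by the interaction term (the soleus effect minus the TA effect). By edgeR 0 of the 9 genes and 0 of the 20841 genes tested (0.0%) were called, while 24.9% of all genes had an unadjusted p under 0.05. Over all genes DESeq2 called 306 and limma-voom with the shared label number as a block called 9, and none of these was one of the 9 genes. Tnni2 (log2 0.35, 0.04 to 0.66, adjusted p = 0.155) and Tpm2 (0.19, 0.01 to 0.37, adjusted p = 0.183) passed the unadjusted limit. Tnnt3 was at 0.27 (SE 0.13, adjusted p = 0.201), Tpm1 at 0.29 (-0.01 to 0.59) and Tnnc2 at 0.24 (-0.05 to 0.54). The slow troponins were between -0.18 and -0.11, with intervals as wide as -0.87 to 0.52 for Tnnc1, and Tpm3 was at 0.12.

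**Figure D4:**
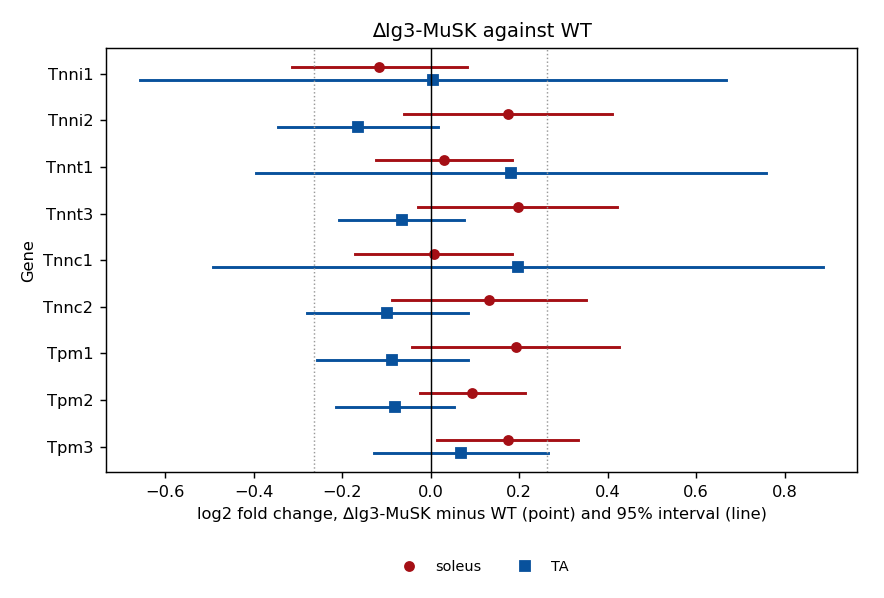
Log2 fold change of ∆Ig3-MuSK against WT for each gene in the soleus (circles) and the TA (squares), with 95% intervals of the edgeR fits and dotted lines at a 1.2-fold change in either direction. Intervals were widest for the slow troponins in the TA, as for Tnnc1 (-0.49 to 0.89), and the soleus interval of Tpm3 (0.01 to 0.33) was the one that left out 0.

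Of 16 other thin-filament genes (actins, actinins, leiomodins, tropomodulins, nebulins, the cardiac troponins I and T and Tpm4 among them), 0 were called in either genotype comparison or in the interaction by edgeR. Of all genes, 0.952% were called in the soleus, 0.0149% in the TA and 0.0% in the interaction. An unadjusted p under 0.05 was found for 5 of the 16 in the soleus, 5 in the TA and 4 in the interaction. The shares of all genes were 18.5%, 24.1% and 24.9%. The median log2 fold change of the 16 was 0.02 in the soleus and -0.03 in the TA, beside 0.13 and -0.07 for the 9 genes and -0.0017 and -0.0032 for all genes. Between muscles in WT, 10 of the 16 were called higher and 4 lower in the soleus, against 30.2% and 27.3% of all genes. Lmod2, a leiomodin that nucleates actin filaments, was highest at a log2 of 3.60, with 44.5 CPM at the median of the TA and 573 CPM in the soleus. Actn2, an alpha-actinin of the Z-disc, was next at 2.94. Actn3, the alpha-actinin of fast fibers, was lowest at -4.16, and Tmod4, a tropomodulin that caps the pointed end, followed at -1.27. None of the 16 reached the 6.84 of Tpm3 or the values of the slow troponins.

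How the 6 troponins varied between libraries of 1 muscle was described by correlations over 18 libraries, each log2 CPM value centred on its genotype mean (30 relations in the family, 100000 permutations within genotype). Genes of the same fiber type varied together. Among the slow troponins r was 0.85 to 0.97 in the soleus and 0.93 to 0.94 in the TA (Spearman rho 0.89 to 0.95 and 0.88 to 0.94). Among the fast troponins r was 0.98 to 0.99 and 0.82 to 0.90 (rho 0.95 to 0.99 and 0.84 to 0.93). All 12 of these relations had an adjusted permutation p of 1.75e-04 or less for r and 1.25e-04 or less for rho, most of them from the smallest raw p that the permutations can give (1e-05), and r stayed at 0.80 to 0.99 without the 2 libraries farthest from the median of the first gene. Library scaling is shared by the genes of a library. Slow against fast was less regular. In the soleus the 9 slow and fast combinations gave r from -0.59 to -0.22 over both genotypes, and 1 of them, Tnni1 with Tnnt3, passed the adjusted permutation p for r (r = -0.59, adjusted permutation p = 0.0406), but not for rho (-0.47, adjusted permutation p = 0.141). Without the 2 libraries farthest from the median of the slow gene this relation was weaker (-0.47), while those of Tnnt1 and Tnnc1 with the fast troponins were stronger (-0.35 to -0.22 with all libraries, -0.65 to -0.52 without them). Within the 9 WT libraries the same combinations ran from -0.96 to -0.79, and within the 9 ∆Ig3-MuSK libraries from 0.21 to 0.37, a difference between genotypes that was not tested. In the TA they ran from -0.13 to 0.01.

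Relations to the myosins Myh4 and Myh7 were added after the wide spread of Myh4 in the soleus was seen (36 relations, adjusted as 1 family). Myh4, the type IIb myosin, ranged over 150 to 6113 CPM in WT soleus (median 1283) and 252 to 4907 CPM in ∆Ig3-MuSK soleus (median 2256). The fast myosins Myh1 and Myh2 had higher soleus medians, 4193.5 and 8198 CPM in WT and 4909 and 8292 CPM in ∆Ig3-MuSK. Their relations to the 9 genes were not tested. In the soleus the fast troponins rose with Myh4, at r = 0.63 to 0.70 (adjusted permutation p 0.0121 to 0.0226, rho 0.66 to 0.70), as did Tpm1 at r = 0.73 (adjusted permutation p = 0.00496, rho 0.70). Without the 2 libraries farthest from the median of Myh4 these were 0.51 to 0.59 and 0.63. Over the 9 WT libraries r was 0.85 to 0.87 for the fast troponins and 0.90 for Tpm1, and over the 9 ∆Ig3-MuSK libraries 0.19 to 0.26 and 0.34, the difference not tested. Myh7, the slow myosin, went with the slow troponins in both muscles, at r = 0.82 to 0.85 in the soleus (rho 0.79 to 0.83, adjusted permutation p 2.40e-04 to 8.23e-04) and 0.85 to 0.94 in the TA (rho 0.74 to 0.82, adjusted permutation p 2.40e-04 to 2.88e-04), and with Tpm3 at 0.75 and 0.88. For the slow troponins in the soleus r was 0.92 to 0.94 within WT and 0.74 to 0.80 within ∆Ig3-MuSK. The fast troponins ran against Myh7 in the soleus (r = -0.60 to -0.59, rho -0.60 to -0.57, adjusted permutation p 0.0222 to 0.0259, and r = -0.79 to -0.75 without 2 libraries). By genotype r was -0.92 to -0.91 over the 9 WT libraries and -0.23 to -0.17 over the 9 ∆Ig3-MuSK libraries, the difference not tested. Tpm2 passed with neither Myh4 nor Myh7 in either muscle. In the TA none of the fast troponins passed with Myh4 (r = -0.34 to -0.01).

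**Figure D5:**
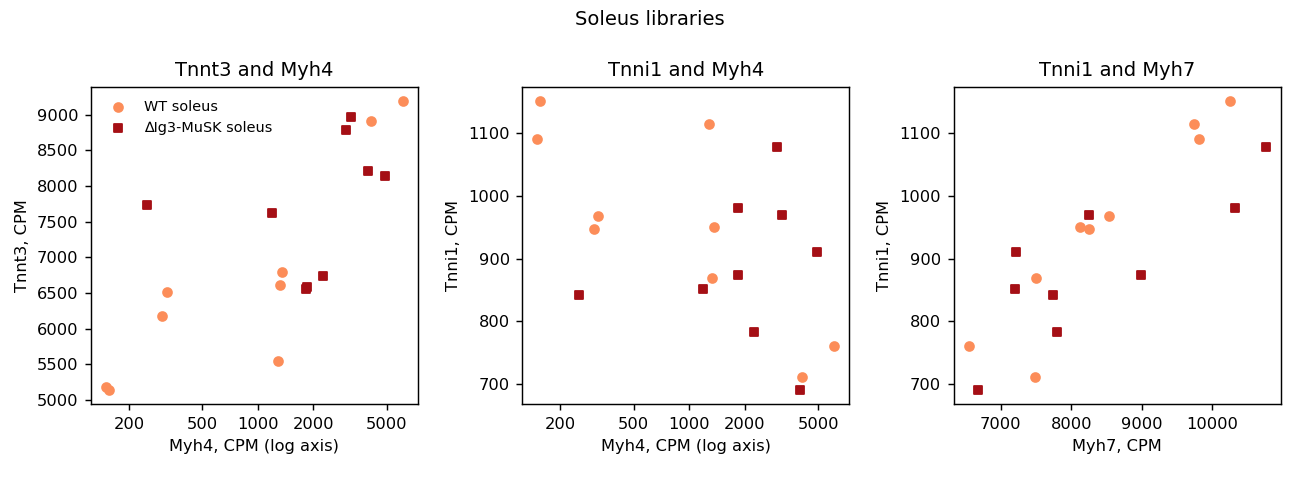
CPM of Tnnt3 against Myh4, Tnni1 against Myh4 and Tnni1 against Myh7 in the soleus libraries, 9 WT (circles) and 9 ∆Ig3-MuSK (squares), with Myh4 on a log axis. Over all 18 libraries, centred on genotype, r was 0.70, -0.50 and 0.85 on the log2 scale.

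The gene most like each of the 9, by Pearson r over the 18 libraries of a muscle among all genes tested there, was often another of them. In the soleus Tnnt1 and Tnnc1 were most like each other (r = 0.97), Tpm1 was most like Tnni2 (0.98), and Tnni2 most like Tnnc2 (0.99). Tnni1 was most like Myl2, the slow regulatory light chain (0.92), Tnnt3 most like Dhrs7c (0.99), and Tpm2 most like Acta1, skeletal actin (0.94). In the TA Tnni1 and Tnnt1 were most like Tpm3 (0.94 and 0.96), Tpm3 was most like Tnnt1, Tnnc1 was most like Tnni1 (0.94) and Tpm1 most like Tnni2 (0.93). The fast troponins I and T were there most like Aamp (0.97) and Akt1s1 (0.93), and Tpm2 most like Snrpn (0.83). The row most like Tnnc2 was Ube2c in both muscles, which carries nearly the same reads, as given above. The row most like Tpm3 in the soleus was Tpm3-rs7 (0.97), whose reads cannot be fully separated from those of Tpm3.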

How the data were processed

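Gene counts of 36 whole-muscle libraries were analysed. The authors trimmed reads with Trimmomatic, used GSNAP for alignment to the mouse genome (mm10, GRCm38) and HTSeq to assign them to genes, from non-stranded libraries, and the deposited values are raw counts. The counting mode is not given in the sources used here. Groups came from the sample labels.

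Counts were tested in R 4.3.3 with edgeR 4.0.16 (filterByExpr, TMM factors, quasi-likelihood F-test, Benjamini-Hochberg adjustment over all genes tested), with the 18 libraries of a muscle for genotype and all 36 for muscle and interaction. A call needed an adjusted p under 0.05 and a change of at least 1.2-fold. CPM values used TMM factors over all 36 libraries, and log2 CPM a prior count of 2. Gene names, lengths and sequences came from GENCODE and RefSeq annotations of GRCm38. Correlations used 100000 permutations. Scripts were tested on simulated data. DESeq2 1.42.0, limma 3.58.1 and other scalings, filters, blocks and left-out libraries were alternatives, and the ratio per kb of principal transcript and the relations to Myh4 and Myh7 were added after seeing the data. The 9 genes and all lists were chosen with earlier results of these data known, and the genes named outside the 9 are the 2 highest and 2 lowest of the thin-filament list, Musk, the fiber type myosins, Acta2 and the gene most like each of the 9. The deposited tables held 0 columns of other samples.

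Each library of a group came from a different animal. The label numbers of TA and soleus libraries were shared by 16 pairs. Deviations from the group means correlated by 0.03 to 0.28 within these pairs (median 0.091), with 7 of 16 over 0.1. For WT and ∆Ig3-MuSK libraries of the same replicate number the medians were 0.009 in the soleus and -0.004 in the TA. The sources do not say that a label number names an animal, so libraries were not treated as paired in the main fits. If TA and soleus libraries share animals, the main muscle and interaction p-values do not take this into account.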

Additional observations from a re-analysis of the deposited data

Results flagged for a closer look

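Among 36 checks of a group of 9 libraries (9 genes in 4 groups), 1 library lay apart from its group by Dixon's test, and chance alone gives about 1 in 20. Tnni1 in ∆Ig3-MuSK TA replicate 4 was at 6.82 CPM, the next highest library of the group was at 3.86 CPM, and this gap took 0.526 of the range of the group, above the critical value for 9 values. The same library was the highest of its group for Tnnt1 (11.9 CPM), Tnnc1 (7.90 CPM) and Tpm3 (30.9 CPM), and Myh7 was at 37.5 CPM in it.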

How the results depend on the processing

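The number of the 9 genes called was 9 for soleus against TA in both genotypes and 0 for the genotype comparisons and the interaction under each alternative run: DESeq2, limma-voom, other scaling factors, no filter on low counts, other sets of libraries, the replicate block and, for the genotype comparisons, each of the 18 libraries of a muscle left out in turn (lowest and highest count 0). Not every alternative was run for every comparison. Limma-voom was not run for soleus against TA, and the interaction was not run without the filter or with other sets of libraries. Over all genes the calls moved far more, with 22 to 653 in the soleus (185 in the fit reported), 0 to 692 in the TA (3 in the fit reported) and 0 to 306 for the interaction (0 in the fit reported). With the replicate number as a block, soleus calls were 347 and TA calls 0 over all genes. The numbers did not pair WT with ∆Ig3-MuSK libraries (correlations of -0.28 to 0.31 in the soleus and -0.13 to 0.39 in the TA).

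Directions that changed were all of estimates that passed no test, and the cause was not tested. Tnni1 in the TA was at -0.07 under the replicate block and -0.31 to 0.16 with 1 library left out. Tnnc1 in the soleus was at -0.03 with limma-voom and -0.03 to 0.04 with 1 library left out. In the TA Tnnt1 ran from -0.05 to 0.35 and Tnnc1 from -0.13 to 0.40 with 1 library left out, lowest without ∆Ig3-MuSK replicate 4. DESeq2 gave no adjusted p for Tnni1 and Tnnc1 in the TA, so the 0 calls of DESeq2 there do not test these genes.

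The length used moved the log2 slow to fast ratio but left it below 0. Per kb of all exons the troponin I medians were -12.83 in WT TA, -12.52 in ∆Ig3-MuSK TA, -2.71 in WT soleus and -3.06 in ∆Ig3-MuSK soleus, those of troponin T -2.02 and -2.22 in WT and ∆Ig3-MuSK soleus, and that of troponin C -1.82 in ∆Ig3-MuSK soleus. Per kb of principal transcript troponin I was at -2.03 in WT and -2.37 in ∆Ig3-MuSK soleus. The slow troponins in the TA had 78 to 906 counts a library, and their coefficients of variation of 43.9% to 68.4% in CPM are a spread between libraries.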
